A study of Mus musculus with 9 samples.

Results

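The genes described here are neighbours of Oma1 on mouse chromosome 4: 44 genes within about 10 Mb of Oma1, taken by name. The rule holds no measured value, but the list was chosen with earlier results of these data known. Of the 44 genes, 42 are among the 13539 genes of the deposited table. Of the 42, 33 met the minimum for testing, a value of 10 or more in 3 or more of the 9 libraries, as did 8543 genes in all. Another 41 of the listed genes start within 10 Mb of Oma1 and are not members. Rab3b and Dnajc6 were not found among the listed names. The 9 members below the minimum are Atg4c, Alg6, Itgb3bp, Cachd1, Raver2, Lepr, Lrrc42, Hspb11 and Ttc39a. On build GRCm38, 17 of the listed members start before Oma1, at distances of 0.1 to 7.35 Mb, and 25 start after it, at 1.84 to 6.36 Mb.

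RNA from whole hearts of 12-week-old male mice of the strain C57BL/6JOlaHsd was sequenced in 9 libraries, 3 in each of 3 groups. The first group is wild type and received isoproterenol, a β-adrenergic agonist, at 10 mg/kg/day from implanted minipumps for 7 days (treated wild-type hearts). The second is OMA1 knockout with no treatment (untreated knockout hearts), and the third is OMA1 knockout with the same isoproterenol dose and duration (treated knockout hearts). Hearts of untreated wild-type mice are not analysed here, so a difference between untreated knockout and treated wild-type hearts mixes genotype with drug and pump, and whether genotype alters the response to the drug could not be tested. The kind of knockout allele is not given in the sources used here. No animal numbers are given, so the p-values speak only to the spread of these libraries, which may in part be technical.

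OMA1 is a protease of the inner mitochondrial membrane that is switched on by stress and cuts OPA1, the protein that fuses inner membranes. Genes that lie close together on a chromosome are inherited together, so a line made by targeting 1 gene and crossing it into a strain can keep a stretch of the donor's chromosome around the target. Genes on such a stretch can carry other regulatory variants and then differ between knockout and wild type whatever the treatment. The labels do not say whether these mice carry such a stretch, and no sequence variants were analysed here. The neighbours of Oma1 are otherwise a mixed set, with genes of lipid and sugar metabolism, ubiquitin ligases and proteases, receptors and their adaptors, endocytic proteins and nuclear factors.

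Reads per library ranged from 6.93e+06 to 1.22e+07. Values are the deposited counts, already scaled for library size, and log2 differences are of value + 1, with the standard error of a limma fit over all 9 libraries. In each library the 5 cardiomyocyte markers were present and summed to 28476 to 36346. Other cell types did not stand equally in the groups: the 4 atrial markers summed to 1111 to 2484 in untreated knockout hearts, to 53.5, 88.0 and 844 in treated wild-type replicates 1, 2 and 3 and to 87.8 to 119 in treated knockout hearts. The 5 smooth muscle and pericyte markers, 3 of which fell in untreated knockout hearts against treated wild type, summed to 595 to 629 in untreated knockout, 978 to 1133 in treated wild-type and 958 to 1127 in treated knockout hearts. The 6 endothelial markers summed to 935 to 1036 in untreated knockout, 1339 to 1478 in treated wild-type and 1731 to 2100 in treated knockout hearts. Mitochondrially encoded transcripts made up 33.9% to 34.6%, 36.7% to 37.3% and 38.2% to 42.5% of the values in the same order, with the highest share in treated knockout replicate 2. In whole tissue, fewer cells of a type and less RNA per cell cannot be told apart.

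Oma1 itself (ENSMUSG00000035069, chromosome 4, 103313812 to 103371868, plus strand) was listed at 22.01, 19.9 and 17.7 in the 3 treated wild-type libraries, at 6.52, 9.10 and 6.63 in untreated knockout and at 6.74, 5.73 and 6.25 in treated knockout hearts. Every knockout library lay below every wild-type library, as the labels ask. Relative to treated wild type the log2 difference was -1.53 ± 0.14 in treated (adjusted p = 4.7e-05) and -1.32 ± 0.14 in untreated knockout hearts (adjusted p = 2.3e-05, limma). Some reads remained, 176 and 197 over the 3 libraries of the 2 knockout groups against 597 in wild type. Which part of the gene the knockout allele alters is not given in the sources used here. Oma1 met the minimum only through the wild-type libraries.

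Of the 33 tested members, 4 (12.1%) shifted in both knockout groups, where 4.79% of all tested genes did. At least 1 of the 3 comparisons called 23 members (69.7%), where 63.7% of all tested genes were called, and 10 were called in none. Between treated knockout and treated wild-type hearts, 2 of the 33 tested members were higher, where 12.0% of all tested genes were, and 13 were lower, where 15.9% of all were. Between untreated knockout and treated wild-type hearts, 4 were higher and 7 lower, against 16.9% and 16.4% of all tested genes. Between the 2 knockout groups, 4 were higher and 10 lower with isoproterenol, against 23.9% and 27.4%. As a share, 45.5%, 33.3% and 42.4% of the tested members were called in the 3 comparisons, beside 27.8%, 33.2% and 51.4% of all tested genes. Of the 19 other tested genes within 10 Mb, 21.1%, 31.6% and 63.2% were called, and 5.26% shifted in both knockout groups. The members' median log2 difference from treated wild type was -0.103 in treated and 0.003 in untreated knockout hearts, where the medians of all tested genes were -0.014 and -0.005.

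In untreated knockout hearts the members were thus called about as often as all genes. The count in treated knockout hearts depended on the fit. The 15 calls became 8 of 32 without wild-type replicate 2 (25.0%, beside 20.1% of all genes tested in that fit), 8 of 33 without replicate 2 of the treated knockout (24.2% beside 15.8%) and 9 of 31 without wild-type replicate 1 (29.0% beside 19.4%). They became 9 (2 higher, 7 lower) once each library was corrected for transcript length and GC content, or 27.3% beside 20.2%. The calls over all genes thus fell in the same fits. In untreated knockout hearts the 11 calls became 7 without wild-type replicate 2, without untreated knockout replicate 1 or without untreated knockout replicate 2. The share over all genes there fell from 33.2% to 28.7%, 24.3% and 23.2%. The same correction gave 8 higher and 6 lower, or 42.4% beside 30.8% of all genes. Leaving out mitochondrially encoded genes gave 2 higher and 7 lower in untreated knockout hearts, or 27.3% beside 34%. Between the knockout groups it gave 9 higher and 10 lower, or 57.6% beside 52.7%. Of all genes, 2821 of 8528 were then higher, where 2043 of 8543 were with those genes kept. Cyclic loess scaling gave 7 higher and 10 lower between the knockout groups, or 51.5% beside 51.8%. The 2 comparisons with wild type share the 3 wild-type libraries, so the members are given side by side and no overlap was tested. Tdeanc2 and Slc35d1 reached the minimum only through the group in which they were high, so their calls were favoured by the filter and support nothing.

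**Figure D1:**
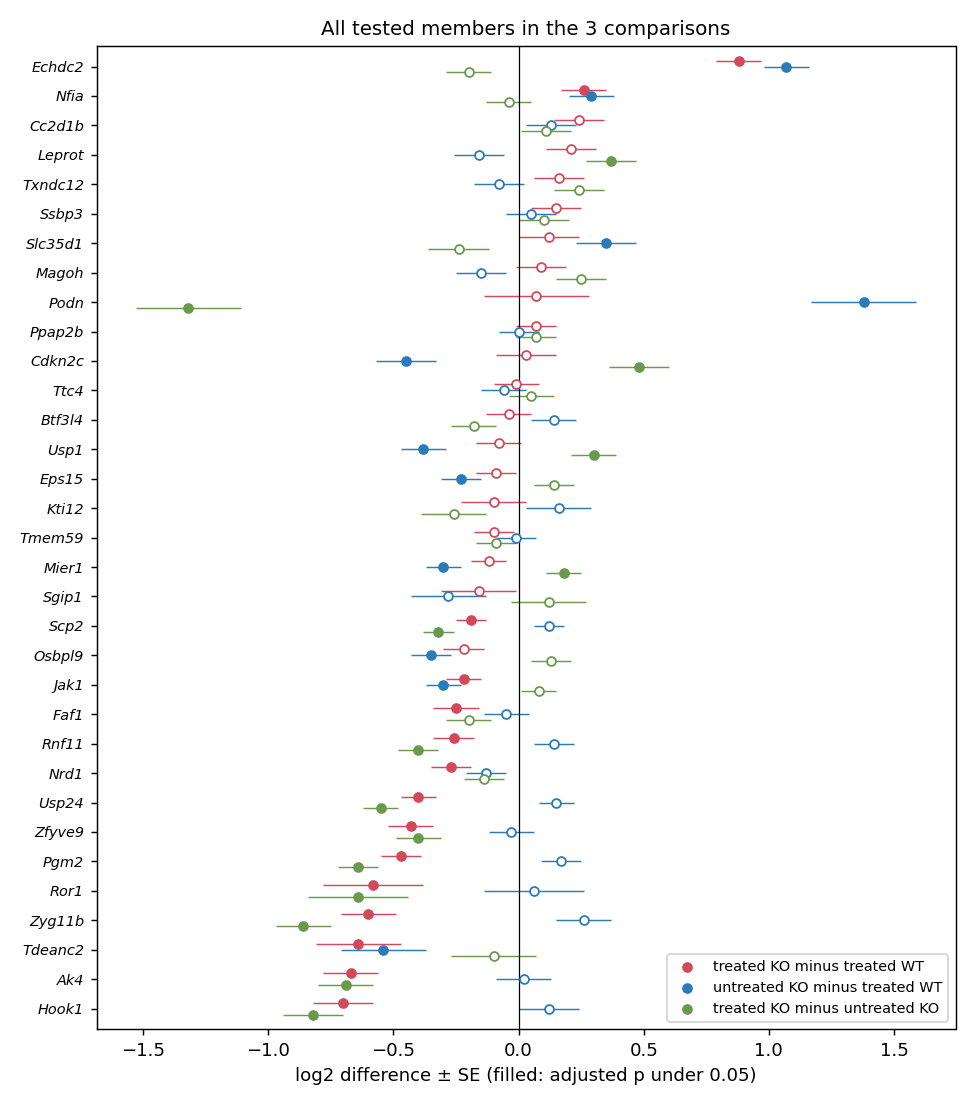
Log2 differences (x axis, ± SE of the limma fit) of the 33 tested members (y axis, ordered by the difference between treated knockout and treated wild-type hearts) in the 3 comparisons; filled points have an adjusted p under 0.05. Echdc2 stands at 0.88 and 1.07 in both comparisons with wild type, while Hook1, Ak4 and Zyg11b lie at -0.70, -0.67 and -0.60 in treated knockout hearts and near or above 0 in untreated ones.

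A member was taken to follow genotype when both comparisons with wild type passed the threshold with the same sign and all 6 knockout libraries lay above, or all below, the 3 wild-type libraries. Echdc2 and Nfia did so with higher values and Jak1 and Tdeanc2 with lower ones, 2 and 2 of 33, where 2.79% and 2.0% of all tested genes did. Echdc2 was by far the largest of the 4. The count was 2 without wild-type replicate 3, untreated knockout replicate 1, untreated knockout replicate 2, treated knockout replicate 1 or treated knockout replicate 2. It was 1 without wild-type replicate 2, and Echdc2 was then the gene that remained. When 1 library was left out, the share of all tested genes that follow genotype was 3.21% to 3.96%. Tdeanc2 met the minimum only through wild type; with all genes that met it through a single group left out, 3 of 31 members (9.68%) and 4.74% of all tested genes followed genotype.

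The promoters of 3 of these genes are shown, as the DNA from 250 bases before to 50 bases after the start that RefSeq gives on GRCm38.p6, so that the members shifted in both knockout groups can be compared in sequence. The RefSeq window of the fourth, Nfia, is not shown, because it lies far from the start of the gene model used for the positions here. For Tdeanc2 the window shown does not reach the start of that gene's model, at 107179116. The capitals mark matches, on either strand, to 6 motifs. Searched were the TATA box with the letters TATAAA and the pentamer CCAAT, which binds the nuclear factor Y complex. The GC box was searched as GGGCGG, and the core bound by ETS factors was searched as CCGGAAG. The full cAMP response element was searched as TGACGTCA, and the element bound by STAT proteins was searched as TTCNNNGAA. The 3 windows are chr4:108165187-108165486 on the plus strand for Echdc2, chr4:101265174-101265473 on the minus strand for Jak1 and chr4:107178317-107178616 on the minus strand for Tdeanc2, named Tceanc2 in RefSeq.
Echdc2: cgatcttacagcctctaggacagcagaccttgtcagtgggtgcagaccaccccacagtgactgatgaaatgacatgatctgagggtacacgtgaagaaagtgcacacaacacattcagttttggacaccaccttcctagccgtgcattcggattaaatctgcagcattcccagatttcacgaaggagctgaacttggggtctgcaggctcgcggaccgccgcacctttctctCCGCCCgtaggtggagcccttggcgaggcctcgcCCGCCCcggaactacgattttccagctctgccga
Jak1: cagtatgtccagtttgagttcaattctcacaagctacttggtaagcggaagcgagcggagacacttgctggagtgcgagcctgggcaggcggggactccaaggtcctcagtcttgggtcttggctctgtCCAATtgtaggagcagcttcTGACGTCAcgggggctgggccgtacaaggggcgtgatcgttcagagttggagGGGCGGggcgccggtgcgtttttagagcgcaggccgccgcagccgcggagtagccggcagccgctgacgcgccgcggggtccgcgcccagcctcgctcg
Tdeanc2: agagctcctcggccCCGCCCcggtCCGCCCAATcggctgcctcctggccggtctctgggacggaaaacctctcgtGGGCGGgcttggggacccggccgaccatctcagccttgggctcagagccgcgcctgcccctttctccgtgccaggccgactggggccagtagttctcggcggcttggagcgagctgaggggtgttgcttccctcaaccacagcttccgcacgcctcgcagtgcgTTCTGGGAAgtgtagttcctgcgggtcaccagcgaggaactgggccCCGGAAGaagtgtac

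The 3 windows are richer in G and C than most. Their GC content was 56% for Echdc2, 64.7% for Jak1 and 67.7% for Tdeanc2, where the median of 32851 promoter windows was 52.7%. They hold 17, 29 and 25 CpG pairs beside a median of 7. Echdc2 has 2 GC boxes and no other match, and Jak1 has 1 CCAAT box, 1 GC box and 1 cAMP response element. Tdeanc2 has 1 CCAAT box that overlaps 1 of its 3 GC boxes, 1 ETS core and 1 STAT element. Among all windows, 35.7% hold a GC box, 37.4% a CCAAT box, 8.86% an ETS core, 8.3% a STAT element, 1.79% a cAMP response element and 13.6% a TATA box, which none of the 3 has. No motif is common to the 3 but the GC box. These matches describe letters in a window and not binding.

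Echdc2 (ENSMUSG00000028601, chromosome 4, 108165437 to 108179308, plus strand, 4.85 Mb after Oma1) codes for a mitochondrial protein of the enoyl-CoA hydratase family, whose members act in fatty acid and amino acid breakdown. Its value was 16.3, 14.9 and 14.8 in treated wild-type, 32.01, 33.1 and 34.95 in untreated knockout and 29.9, 30.95 and 26.2 in treated knockout hearts. All 6 knockout libraries stood well above the wild-type ones, and treated knockout replicate 3 was the lowest of the 6. The difference from wild type was 0.88 ± 0.09 with isoproterenol (1.84-fold on the value + 1 scale, adjusted p = 6.8e-05) and 1.07 ± 0.09 without it (2.10-fold, adjusted p = 2.6e-06). Between the knockout groups it was -0.20 ± 0.09 (adjusted p = 0.07). The counts behind these values are 461, 787 and 909 reads per group. Echdc2 met the rule under all 22 alternatives, with log2 differences of 0.62 to 0.95 in treated and 0.77 to 1.12 in untreated knockout hearts.

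Jak1 (ENSMUSG00000028530, chromosome 4, 101152367 to 101265282, minus strand, 2.05 Mb before Oma1) is a tyrosine kinase that carries signals from cytokine and interferon receptors. It was measured at 155, 156 and 153 in treated wild-type, 131, 127 and 119 in untreated knockout and 133, 128 and 136 in treated knockout hearts. The wild-type libraries were close to each other and above all knockout libraries. The log2 difference was -0.22 ± 0.07 in treated (adjusted p = 0.025) and -0.30 ± 0.07 in untreated knockout hearts (adjusted p = 0.0038), or 0.859 and 0.814 of the wild-type level on the value + 1 scale. Jak1 met the rule under 15 of 22 alternatives. With the correction for length and GC content the treated difference was -0.13 (adjusted p = 0.16), and it also missed the threshold when replicate 1 or 2 of wild type, or replicate 1 or 2 of the treated knockout, was left out.

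Tdeanc2 (ENSMUSG00000028619, now Tceanc2, chromosome 4, 107134155 to 107179116, minus strand, 3.87 Mb after Oma1) codes for a protein with the N-terminal domain of a transcription elongation factor. Its values were 11.8, 10.4 and 11.1 in treated wild-type, 7.73, 5.53 and 8.98 in untreated knockout and 6.84, 5.52 and 8.03 in treated knockout hearts, with no overlap of either knockout group and wild type. The log2 differences were -0.64 ± 0.17 (adjusted p = 0.016) in treated and -0.54 ± 0.17 (adjusted p = 0.029) in untreated knockout hearts. Because every knockout library lay under 10, Tdeanc2 met the minimum only through the wild-type libraries. It rests on 334, 174 and 218 reads per group. It met the rule under 16 of the 19 alternatives that tested it, and not without untreated knockout replicate 1 (-0.58, adjusted p = 0.053) or 2 (-0.37, adjusted p = 0.13) or treated knockout replicate 2 (-0.52 in treated hearts, adjusted p = 0.066). Tdeanc2 and Tmem59 start head to head: their spans in GENCODE share 718 bases on opposite strands. In RefSeq their starts lie 264 bases apart, and their promoter windows share 237 bases. Tmem59, a membrane protein of the Golgi, was at 88.4, 96.04 and 102 in treated wild-type, 92.9, 94.2 and 97.3 in untreated knockout and 95.3, 81.4 and 90.9 in treated knockout hearts, and its log2 differences of -0.10 and -0.01 had adjusted p-values of 0.38 and 0.96.

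Nfia (ENSMUSG00000028565, chromosome 4, 97772734 to 98118874, plus strand, 5.54 Mb before Oma1), a transcription factor of the nuclear factor I family, was at 46.7, 37.7 and 43.4 in treated wild-type, 51.7, 51.7 and 53.2 in untreated knockout and 50.5, 46.7 and 55.9 in treated knockout hearts. Wild-type replicate 1 and treated knockout replicate 2 nearly touch, and wild-type replicate 2 is the lowest library. The log2 differences were 0.26 ± 0.09 (adjusted p = 0.048) and 0.29 ± 0.09 (adjusted p = 0.023) in treated and untreated knockout hearts. Nfia met the rule under 11 of 22 alternatives. With the correction for length and GC content the differences were 0.46 (adjusted p = 0.0023) and 0.41 (adjusted p = 0.0011). Without wild-type replicate 2 they were 0.17 (adjusted p = 0.18) and 0.21 (adjusted p = 0.1), and the treated difference also missed the threshold without wild-type replicate 3, any 1 untreated knockout library, or treated knockout replicate 1 or 3.

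**Figure D2:**
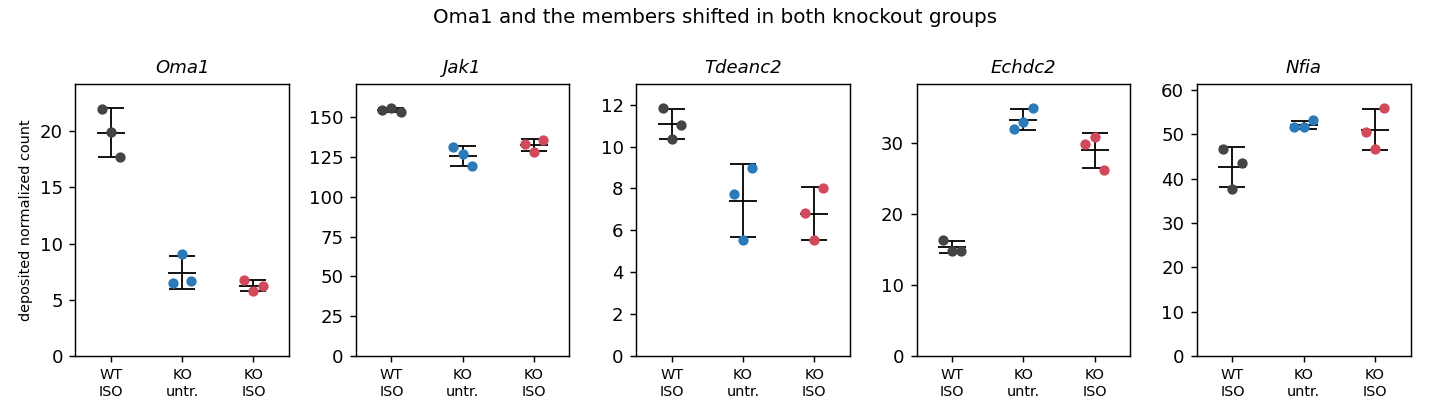
Deposited normalized count (y axis, from 0) of Oma1 and of the 4 members that shifted in both knockout groups, by group (x axis: treated wild type, untreated knockout, treated knockout); points are libraries and bars the mean ± SD of n = 3. Echdc2 lies between 26.2 and 35.0 in the knockout libraries and between 14.8 and 16.3 in the wild-type ones, while for Nfia the groups nearly touch at 46.7.

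The members nearest to Oma1 showed no common direction. On the lower side these are Slc35d1, Mier1 and Sgip1, which start 0.1, 0.2 and 0.57 Mb before Oma1. Slc35d1, which carries nucleotide sugars into the endoplasmic reticulum, was at 8.99, 8.07 and 8.27 in treated wild-type, 12.2, 10.7 and 10.4 in untreated knockout and 9.64, 8.96 and 9.09 in treated knockout hearts. Only the untreated knockout libraries stood apart from wild type, at 0.35 ± 0.12 (adjusted p = 0.034), and the gene met the minimum only through them. The treated difference was 0.12, with a 95% confidence interval of -0.14 to 0.37.

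Mier1, a transcriptional repressor that recruits histone deacetylases and lies 4.9 kb from Slc35d1, went the other way. Its values were 37.96, 37.1 and 36.8 in treated wild-type, 29.96, 31.1 and 29.3 in untreated knockout and 33.4, 33.04 and 36.7 in treated knockout hearts. It fell by 0.30 ± 0.07 (adjusted p = 0.0068) in untreated knockout hearts, while the treated difference was -0.12 (95% confidence interval -0.27 to 0.04, adjusted p = 0.25). All treated knockout libraries of Mier1 were below wild type, but by as little as 36.7 against 36.8. Between the knockout groups it was 0.18 ± 0.07 higher with isoproterenol (adjusted p = 0.049), a call that 13 of 22 alternatives did not make. Sgip1, an endocytic adaptor, had values of 14.6, 12.8 and 16.5 in treated wild-type, 9.90, 10.8 and 15.3 in untreated knockout and 11.1, 13.97 and 14.03 in treated knockout hearts. The groups overlapped, and the confidence intervals of its difference from wild type were -0.49 to 0.17 in treated and -0.61 to 0.05 in untreated knockout hearts.

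After Oma1 the nearest members are Ppap2b, Usp24 and Ttc4, at 1.84, 3.0 and 3.37 Mb. Ppap2b, now named Plpp3, a phosphatase of lipid phosphates on the cell surface, was at 78.5, 85.7 and 79.9 in treated wild-type, 82.02, 77.7 and 84.8 in untreated knockout and 80.4, 92.97 and 82.98 in treated knockout hearts. The groups overlapped, and the confidence intervals of its difference from wild type were -0.09 to 0.23 in treated and -0.16 to 0.17 in untreated knockout hearts. Ttc4, a co-chaperone, was at 20.1, 20.5 and 22.6 in treated wild-type, 17.8, 21.03 and 21.97 in untreated knockout and 21.1, 19.9 and 21.7 in treated knockout hearts. These overlapped too, with intervals of -0.21 to 0.19 and -0.26 to 0.14. For these 2 genes a log2 shift as large as that of Echdc2 lies outside both intervals.

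Along the chromosome, genes that follow genotype were counted by the distance of their start from that of Oma1, members and other tested genes together. There was 1 of 8 within 2 Mb (12.5%), 3 of 23 from 2 to 5 Mb (13%), 1 of 21 from 5 to 10 Mb (4.76%) and 3 of 64 from 10 to 20 Mb (4.69%). Over the rest of chromosome 4 it was 17 of 413 (4.12%), and over the other chromosomes 378 of 7964 (4.75%). Within 10 Mb the share was 5 of 52, or 9.62%. These are small counts, described with no test: the share within 10 Mb was 1.96% without wild-type replicate 2, beside 3.49% on the other chromosomes, and 3.85% beside 3.39% with replicate 2 of the treated knockout left out. It was 5.77% to 6% without wild-type replicate 1 or 3, untreated knockout replicate 1 or 2, or treated knockout replicate 1, beside 3.15% to 3.94%. With genes that met the minimum through a single group left out, Tdeanc2 among them, 2 of 22 genes from 2 to 5 Mb (9.09%) and 4 of 50 within 10 Mb (8.0%) followed genotype, beside 4.72% on the other chromosomes. Chromosome 4 as a whole, with 25 of 529 (4.73%), stands near the share of all tested genes.

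The share called in a single comparison was higher near Oma1 than on other chromosomes in treated knockout hearts, and close to it in untreated ones. In treated knockout hearts it was 37.5%, 39.1%, 33.3%, 29.7% and 24.7% from the nearest to the farthest stretch of chromosome 4 and 27.9% on other chromosomes. In untreated knockout hearts it was 37.5%, 30.4%, 33.3%, 29.7%, 32.0% and 33.3% in the same order. These shares are described with no test, and those of treated knockout hearts within 10 Mb rest on 3 of 8, 9 of 23 and 7 of 21 genes. The 15 member calls among them became 8 without wild-type replicate 2, where the calls over all genes also fell. The genes that follow genotype are also spread among others that do not. Echdc2 ends 50.4 kb from Zyg11b and begins 20.4 kb from Scp2, and neither of those 2 followed genotype.

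**Figure D3:**
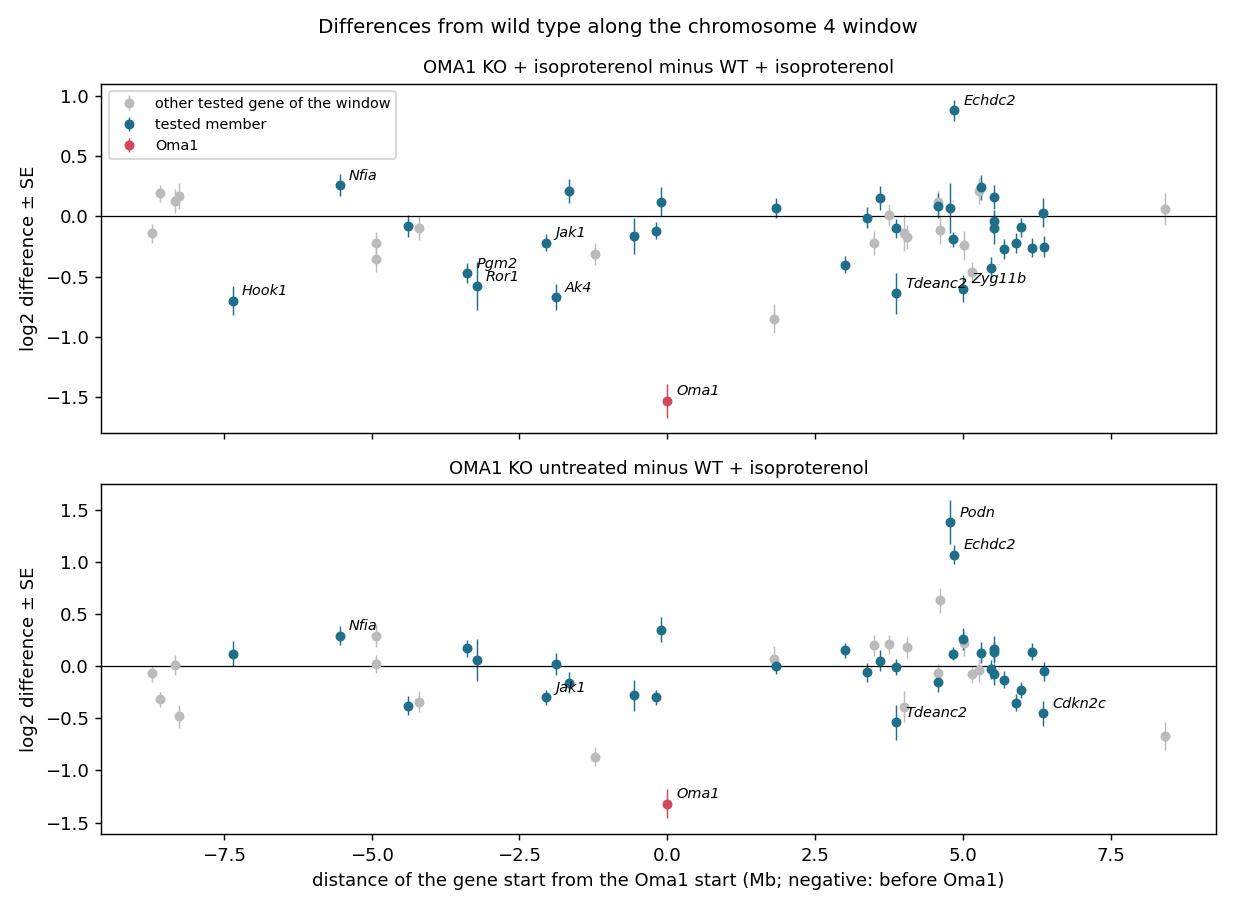
Log2 difference from treated wild-type hearts (y axis, ± SE) of the tested genes by distance of their start from the Oma1 start (x axis, Mb), for treated knockout (top) and untreated knockout hearts (bottom); members are dark, other tested genes grey and Oma1 red. Members before and after Oma1 lie on both sides of 0, and Echdc2 at 4.85 Mb is the highest point in treated knockout hearts.

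**Figure D4:**
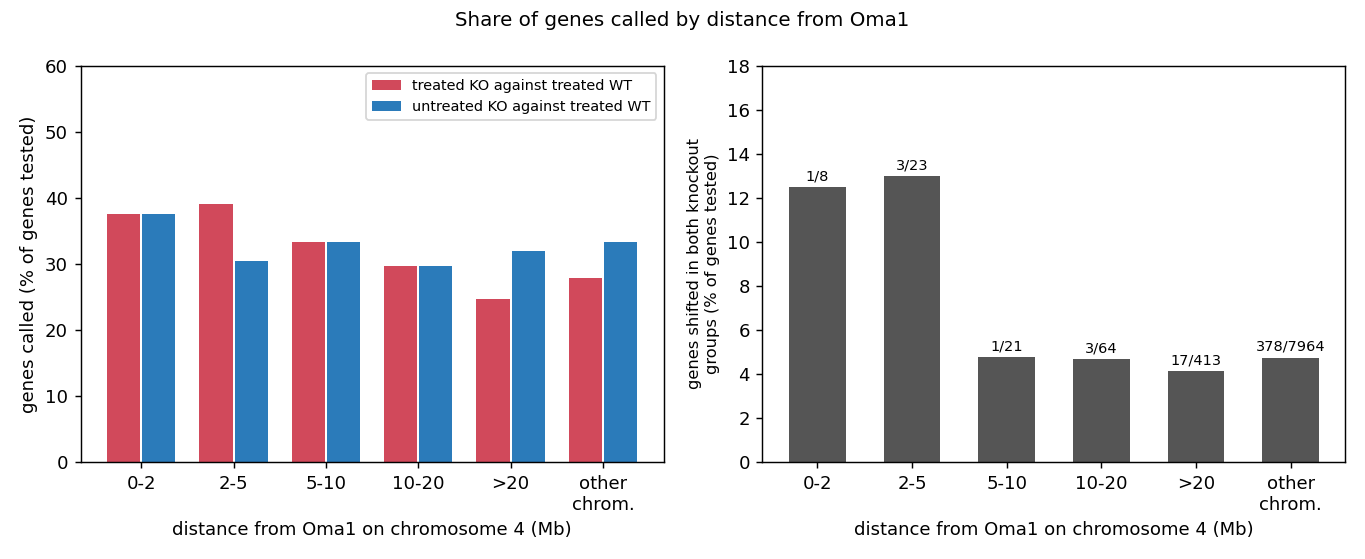
Share of tested genes (y axes, %) called in each comparison with wild type (left) and shifted in both knockout groups (right), by distance from Oma1 on chromosome 4 and for the other chromosomes (x axes). The 2 nearest stretches stand at 12.5% and 13% on the right, from 1 of 8 and 3 of 23 genes, and the rest lie between 4.12% and 4.76%.

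Of the 19 other tested genes in the window, Pde4b was the 1 that followed genotype. Pde4b breaks down cyclic AMP, the messenger that β-adrenergic agonists raise, and starts 1.23 Mb before Oma1. It was at 61.3, 63.8 and 53.2 in treated wild-type, 31.2, 31.5 and 33.02 in untreated knockout and 49.9, 43.5 and 49.6 in treated knockout hearts. The 3 groups did not overlap, and untreated knockout was lowest. The log2 differences from wild type were -0.31 ± 0.09 (adjusted p = 0.017) and -0.87 ± 0.09 (adjusted p = 1e-05), and treated knockout hearts were 0.56 ± 0.09 above untreated ones (adjusted p = 0.00013).

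A lower value in treated knockout hearts than in both other groups was seen in 9 of 33 tested members, Hook1, Ak4, Zyg11b, Ror1, Pgm2, Zfyve9, Usp24, Rnf11 and Scp2, where 11.9% of all tested genes showed this pattern. None showed the reverse, a higher value than in both others, which 7.46% of all tested genes did. This pattern was singled out after the values had been seen. The 42 listed members together summed to 1578 to 1733 in treated knockout hearts, 1893 to 1925 in treated wild-type and 1918 to 1965 in untreated knockout hearts. These sums include the 9 genes, so they are no separate support for the pattern and do not show a fall of the other members. Treated knockout replicate 2, with the highest mitochondrial share, had the lowest sum. The longest annotated transcripts of the 9 ran from 2523 to 10594 bases. Their median was 5517 against 3249 for the other tested members and 3656 for all tested genes. The median GC content was 46.3% against 47.2% and 49.6%. After the correction for length and GC content 6 showed the pattern (18.2%, beside 8.45% of all genes). There were also 6 without wild-type replicate 1 (19.4% beside 8.13%) and 6 without replicate 2 of the treated knockout (18.2% beside 7.01%). Once mitochondrially encoded genes were left out, 7 did (21.2% beside 8.22%). The part of transcript length, GC content and mitochondrial share in the pattern was not tested beyond these fits.

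Among the 6 members of the ubiquitin system and protein turnover, 5 fell in treated knockout against treated wild-type hearts, where 15.9% of all tested genes did, and 1, Usp1, fell in untreated knockout hearts, where 16.4% of all did. The role groups were drawn up with earlier results known, and 3 of the 5 calls, Rnf11, Nrd1 and Faf1, did not hold under all alternatives. Zyg11b, the part of a cullin ligase that picks substrates, was at 82.8, 74.8 and 68.7 in treated wild-type, 89.1, 95.3 and 86.8 in untreated knockout and 52.2, 40.96 and 56.5 in treated knockout hearts. The treated knockout libraries were the lowest 3, with replicate 2 lowest, and the untreated knockout libraries the highest 3. The log2 difference was -0.60 ± 0.11 from treated wild type (adjusted p = 0.0023) and -0.86 ± 0.11 from untreated knockout hearts (adjusted p = 3.1e-05). Usp24, a deubiquitinase 3.0 Mb after Oma1, repeated this order, with 104, 97.1 and 99.96 in treated wild-type, 111, 113 and 109.6 in untreated knockout and 77.8, 71.1 and 78.4 in treated knockout hearts. It fell by 0.40 ± 0.07 against treated wild type (adjusted p = 0.0016) and fell by 0.55 ± 0.07 against untreated knockout hearts (adjusted p = 2.9e-05). Both kept these calls under all 22 alternatives, though the correction for length and GC content moved the difference from treated wild type to -0.40 for Zyg11b (adjusted p = 0.014) and -0.23 for Usp24 (adjusted p = 0.02).

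Rnf11, a RING finger protein of ubiquitin ligase complexes, had values of 113, 116 and 104 in treated wild-type, 117, 129 and 122 in untreated knockout and 95.3, 84.1 and 99.9 in treated knockout hearts. Its log2 difference from treated wild type was -0.26 ± 0.08 (adjusted p = 0.031), which 10 of 22 alternatives did not call, and from untreated knockout hearts -0.40 ± 0.08 (adjusted p = 0.0011). Nrd1, the metalloprotease nardilysin, differed by -0.27 ± 0.08 from treated wild type (adjusted p = 0.029), and Faf1, a ubiquitin-binding partner of the unfolding enzyme VCP, by -0.25 ± 0.09 (adjusted p = 0.047). Those calls were lost under 7 and 18 of 22 alternatives. Usp1, a deubiquitinase of DNA repair proteins, was at 19.99, 22.3 and 21.1 in treated wild-type, 16.4, 15.7 and 15.9 in untreated knockout and 17.9, 21.4 and 20.7 in treated knockout hearts. All its untreated knockout libraries were below the others. They lay -0.38 ± 0.09 from treated wild type (adjusted p = 0.0059), and treated knockout hearts were 0.30 ± 0.09 above them (adjusted p = 0.013).

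Of the 7 tested members of lipid, sugar and energy metabolism, 1 rose and 3 fell in treated knockout hearts against treated wild type, and 2 rose and 1 fell in untreated knockout hearts. Of all tested genes, 12.0% rose and 15.9% fell in the first comparison and 16.9% and 16.4% in the second. Slc35d1, 1 of the 2 that rose in untreated knockout hearts, met the minimum only through that group, so its call supports nothing. Ak4, an adenylate kinase of the mitochondrial matrix, was at 46.2, 49.2 and 45.4 in treated wild-type, 43, 50.3 and 50.02 in untreated knockout and 32.4, 24.1 and 31.7 in treated knockout hearts. The first 2 groups overlapped and all treated knockout libraries lay below them. The difference was -0.67 ± 0.11 (adjusted p = 0.0013) from treated wild type and -0.69 ± 0.11 (adjusted p = 0.00015) from untreated knockout hearts. Pgm2, the chromosome 4 phosphoglucomutase that GENCODE names Pgm1 and that links glycogen to glycolysis, was at 153, 159.7 and 163 in treated wild-type, 179.9, 182 and 173 in untreated knockout and 122, 99.2 and 122 in treated knockout hearts. It fell by 0.47 ± 0.08 (adjusted p = 0.002) and fell by 0.64 ± 0.08 (adjusted p = 3.7e-05) in the same 2 comparisons.

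Scp2, which moves sterols and fatty acids and supplies a peroxisomal thiolase, was the member with the highest level per length, 91.8 per kb of its longest transcript in treated wild-type hearts, before Pgm2 at 62.9 and Tmem59 at 53.7. Its values were 245, 243 and 239.6 in treated wild-type, 267, 263 and 262 in untreated knockout and 222, 203 and 211 in treated knockout hearts. No 2 groups overlapped. The differences were -0.19 ± 0.06 (adjusted p = 0.038) from treated wild type, lost under 15 of 22 alternatives, and -0.32 ± 0.06 (adjusted p = 0.0011) from untreated knockout hearts. Osbpl9, a sterol-binding protein at membrane contacts, was at 96.2, 105 and 114 in treated wild-type, 86.4, 83.3 and 76.8 in untreated knockout and 94.2, 87.2 and 88.6 in treated knockout hearts. It fell by 0.35 ± 0.08 (adjusted p = 0.0044) in untreated knockout hearts. The treated knockout libraries also lay below wild type, with a difference of -0.22 ± 0.08 (adjusted p = 0.054).

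Of the 5 tested members among receptors, signalling and matrix, 3 fell in treated knockout against treated wild-type hearts, where 15.9% of all tested genes did: Jak1, Ror1 and Zfyve9. The calls of Jak1 and Ror1 were lost under 7 of 22 and 6 of 19 alternatives. Zfyve9, an adaptor that brings SMAD proteins to TGF-β receptors, was at 31.7, 33.2 and 35.2 in treated wild-type, 34.3, 31.5 and 32.1 in untreated knockout and 23.7, 21.9 and 28.3 in treated knockout hearts. It fell by 0.43 ± 0.09 (adjusted p = 0.0059) against treated wild type and fell by 0.40 ± 0.09 (adjusted p = 0.0031) against untreated knockout hearts, and the correction for length and GC content gave -0.28 (adjusted p = 0.039) against treated wild type. Ror1, a receptor-type kinase for Wnt ligands, was low, at 11, 8.07 and 9.42 in treated wild-type, 10.1, 11.4 and 8.29 in untreated knockout and 7.56, 4.06 and 6.81 in treated knockout hearts. Treated knockout replicate 2 was its lowest library, and without it the difference from treated wild type went from -0.58 (adjusted p = 0.042) to -0.35 (adjusted p = 0.17).

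Podn, a small leucine-rich proteoglycan of the matrix, had the largest difference of the tested members in any of the 3 comparisons. It was at 7.70, 11.1 and 10.3 in treated wild-type, 37.4, 18.4 and 27.2 in untreated knockout and 11.2, 11.8 and 7.79 in treated knockout hearts. All 3 untreated knockout libraries stood above the other 6, which overlapped. The difference of untreated knockout hearts was 1.38 ± 0.21 from treated wild type (adjusted p = 0.00034, 0.91 with a pseudocount of 10), and treated knockout hearts lay -1.32 from untreated ones (adjusted p = 0.00022). In the same libraries all 4 atrial markers were higher than in treated wild type, and the 3 listed adipocyte markers, none of which was tested, summed to 13.4 to 59.3 against at most 0.518 in the other 6 libraries. The 5 fibroblast markers summed to 588 to 615 in untreated knockout, 717 to 1137 in treated wild-type and 786 to 807 in treated knockout hearts. The part of these cell types in the Podn difference was not tested. The spans of Podn and Scp2 share 52607 bases on the same strand, and Scp2 differed by 0.12 ± 0.06 in that comparison (adjusted p = 0.15).

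Leprot, which limits the leptin receptor at the cell surface, was at 31.8, 29.98 and 38.6 in treated wild-type, 31.04, 27.5 and 30.4 in untreated knockout and 38.1, 35.9 and 42.2 in treated knockout hearts. Treated knockout hearts were 0.37 ± 0.10 above untreated ones (adjusted p = 0.0068). Its differences from wild type did not pass the threshold, at 0.21 (adjusted p = 0.13) and -0.16 (adjusted p = 0.23). Lepr, the leptin receptor, was below the minimum for testing at 2.24 ± 0.451, 2.99 ± 0.588 and 2.78 ± 0.272 (mean ± SD, n = 3) and had the lowest level per length of the listed members, 0.404 per kb in treated wild-type hearts.

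**Figure D5:**
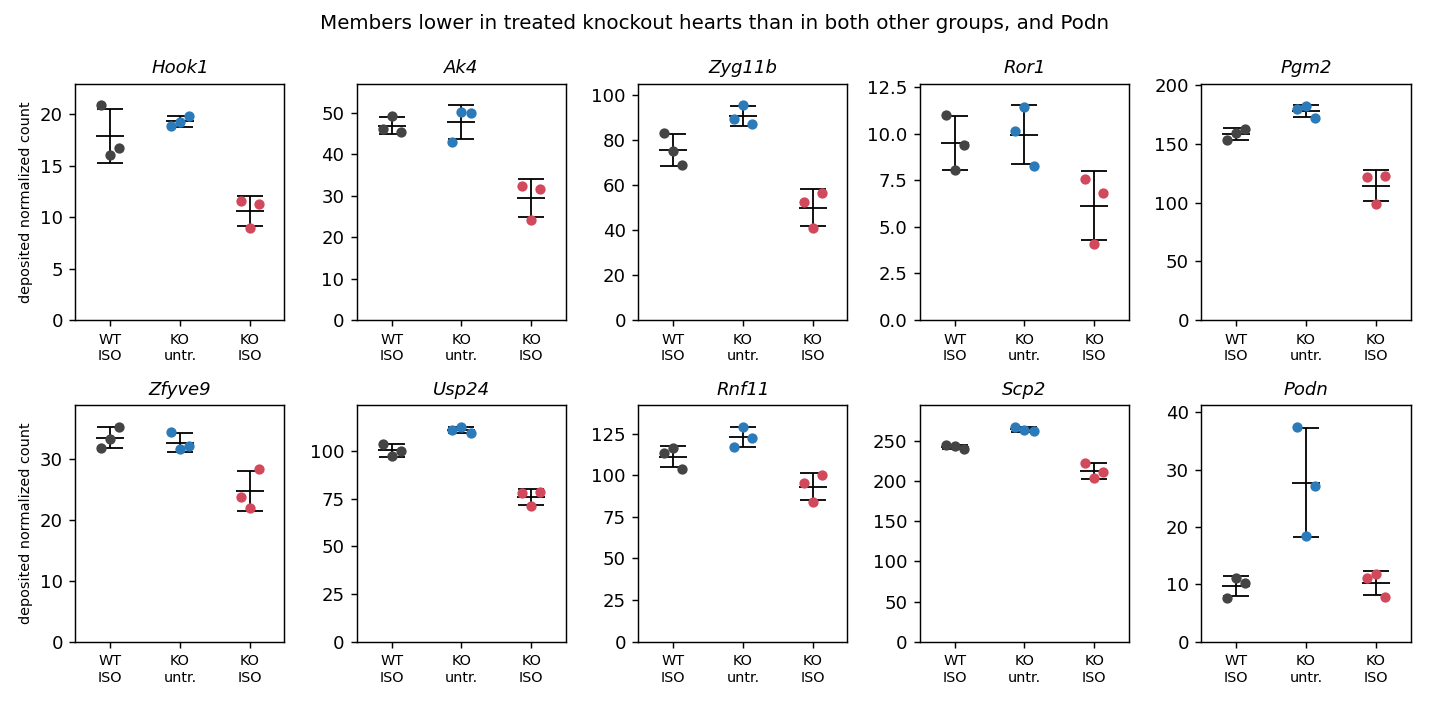
Deposited normalized count (y axis, from 0) of the 9 members that were lower in treated knockout hearts than in both other groups, and of Podn, by group (x axis); points are libraries and bars the mean ± SD of n = 3. For Ak4 the treated knockout libraries lie between 24.1 and 32.4 and all others between 43.0 and 50.3, and Podn is high in untreated knockout hearts alone, at 18.4 to 37.4.

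Of the 9 tested members of transcription, RNA and cell division, 1 rose and 1 fell in treated knockout hearts (Nfia and Tdeanc2), near the 12.0% and 15.9% of all tested genes, and 1 rose and 3 fell in untreated ones, beside 16.9% and 16.4%. Tdeanc2, counted as lower in both, met the minimum only through wild type, so its calls support nothing. Cdkn2c, an inhibitor of cyclin-dependent kinases, was at 11.3, 12.5 and 10.6 in treated wild-type, 8.33, 8.73 and 7.18 in untreated knockout and 11.4, 11.7 and 11.9 in treated knockout hearts. The untreated knockout libraries were the lowest 3. They lay -0.45 ± 0.12 from treated wild type (adjusted p = 0.0096), and treated knockout hearts were 0.48 ± 0.12 above them (adjusted p = 0.0039). The 3 proliferation markers, all called lower in the untreated knockout group than in wild type, summed to 8.82 to 12.3 in those libraries, 77.3 to 108 in treated wild-type and 72.2 to 142 in treated knockout hearts; their part in the Cdkn2c difference was not tested.

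Among the 4 tested members of endocytosis, vesicle traffic and autophagy, 1, Hook1, fell in treated knockout against treated wild-type hearts, where 15.9% of all tested genes did. Hook1, which links cargo to microtubule motors, was at 20.9, 16.03 and 16.7 in treated wild-type, 18.8, 19.3 and 19.9 in untreated knockout and 11.6, 8.96 and 11.3 in treated knockout hearts. It fell by 0.70 ± 0.12 (adjusted p = 0.0016) against treated wild type and fell by 0.82 ± 0.12 (adjusted p = 9.4e-05) against untreated knockout hearts, calls made under all 22 alternatives. A pseudocount of 10 gave -0.43 against treated wild type. Eps15, a scaffold of clathrin-coated pits, was at 51.8, 50.96 and 52.8 in treated wild-type, 45.4, 42.3 and 44.2 in untreated knockout and 51.2, 43.9 and 51.02 in treated knockout hearts. It fell by 0.23 ± 0.08 in untreated knockout hearts (adjusted p = 0.033), which 9 of 22 alternatives did not call.

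No call was made in any of the 3 comparisons for 10 tested members: Ttc4, Txndc12, Ssbp3, Magoh, Cc2d1b, Btf3l4, Kti12, Tmem59, Sgip1 and Ppap2b. Their log2 differences from treated wild type ran from -0.16 for Sgip1 to 0.24 for Cc2d1b in treated knockout hearts and from -0.28 for Sgip1 to 0.16 for Kti12 in the untreated group. Magoh, a core protein of the exon junction complex, was at 13.9, 12.9 and 12.5 in treated wild-type, 12.8, 11.7 and 10.6 in untreated knockout and 14.5, 14.5 and 13.1 in treated knockout hearts. Of the 9 members below the minimum, Alg6, a glucosyltransferase of N-glycan assembly, was at 7.70, 6.92 and 7.88 in treated wild-type, 6.52, 6.39 and 6.22 in untreated knockout and 5.80, 4.48 and 6.49 in treated knockout hearts. All its knockout libraries lay below wild type. Hspb11, a protein of cilia, was at 2.75, 3.11 and 3.27 in treated wild-type, 3.62, 3.44 and 3.32 in untreated knockout and 4.66, 3.34 and 4.14 in treated knockout hearts. All its knockout libraries lay above wild type. When every listed gene was tested, neither passed the threshold: the log2 differences in treated and untreated knockout hearts were -0.38 (adjusted p = 0.074) and -0.20 (adjusted p = 0.31) for Alg6, and 0.31 (adjusted p = 0.17) and 0.14 (adjusted p = 0.52) for Hspb11.

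Some neighbours overlap, and the strand setting of the counting is not given in the sources used here, so reads in the shared stretches cannot be assigned from these values. Beside the pairs named above, Nrd1 and Osbpl9 share 633 bases on opposite strands, Itgb3bp and Pgm2 share 400, and Jak1 and Raver2 share 4. Kti12 lies within Txndc12 over 1629 bases of the same strand. Nfia shares 5345 bases with E130114P18Rik, an unlisted gene on the opposite strand, and Zfyve9 shares 61150 with 3110021N24Rik in the same way. Overlaps were searched among protein-coding genes only, and none was found for Echdc2.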

How the data were processed

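Total RNA of mouse hearts was sequenced by the study in 9 TruSeq libraries. Per the submitters' processing notes, cutadapt, RSEM 1.17 and limma were used with the genome build GRCm38; for the aligner and the annotation the sources used here give no name. The authors deposited 1 table of signal values, normalized expected counts scaled to library size, for 13539 genes. Whole reads could be recovered from these values, since 100% of the lower ones were whole multiples of a step particular to the library, within 0.02 reads. Of the rows, 232 give a gene ID with no symbol and were kept as genes. The 2 groups of knockout and the group of wild-type samples were taken from the labels.

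On the log2(value + 1) scale, limma 3.58.1 (R 4.3.3) tested the 8543 genes that reach 10 in 3 or more of 9 samples. The two-sided fit had a mean for each group, pooled the spread over the 3 groups and used a mean-variance trend, with Benjamini-Hochberg adjustment over all genes tested and a threshold of 0.05. GENCODE release M21 (GRCm38) gave positions, longest transcripts and their GC content, where 13385 listed genes were found and 8494 tested genes had a length and GC content; promoters came from RefSeq GRCm38.p6, with a window for 40 of the 42 listed members. On the whole reads, edgeR 4.0.16 called 2429, 2799 and 4347 genes in the 3 comparisons, and limma on the deposited values 2379, 2839 and 4388. Values are given for every library for members that follow genotype, for members called in treated knockout against treated wild-type hearts with a log2 difference of at least 0.5 and for the 3 nearest members on each side; those of other members given by library were added after their values were seen. Alternatives covered the pseudocount, the filter, 3 scalings, the form of the fit, a replicate block, a length and GC correction (natural splines of 5 degrees of freedom), edgeR, DESeq2 1.42.0 and each library left out. The members, the role groups and the marker lists were chosen with earlier results of these data known. The fit was tested on simulated data.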

Additional observations from a re-analysis of the deposited data

How the results depend on the processing

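Oma1 kept its direction and its call under the 19 alternatives that tested it. Without any 1 wild-type library it fell below the minimum and was not tested. Leaving out 1 knockout library gave -1.57 to -1.47 in treated and -1.46 to -1.24 in untreated knockout hearts, and a pseudocount of 10 gave -0.88 and -0.78. No result reported for a named member with an adjusted p under 0.05 changed its direction under any alternative. The count of members called in treated knockout against treated wild-type hearts was 15 (45.5%, beside 27.8% of all genes). It was 9 with only the 2 groups compared in the fit (27.3% beside 21%) and 9 with the length and GC correction (27.3% beside 20.2%). That correction with the replicate block also gave 9 (27.3% beside 18.2%). When 1 library was left out the count ran from 8 to 13, and the share of all genes from 15.8% to 28.1%. The cause was not tested. The count in untreated knockout hearts, 11, ran from 7 to 13, beside 23.2% to 36.5% of all genes. Between the knockout groups the count, 14, ran from 12 to 14, beside 42.3% to 54.3%. The number of members that follow genotype, 4, ran from 1 to 3, beside 3.21% to 3.96% of all tested genes. The share within 10 Mb ran from 1.96% to 7.84%, while that on the other chromosomes ran from 3.15% to 3.94%. The 9 members lower in treated knockout hearts than in both other groups came to 6 to 9, beside 7.01% to 13.4% of all genes. The alternatives for this pattern were added after the data were seen. Tdeanc2 was not tested without any 1 wild-type library, Slc35d1 without any 1 untreated knockout library, and Ror1 without wild-type replicate 1 or untreated knockout replicate 1 or 2. No pairing by replicate number was evident, though with 3 libraries per group this check cannot exclude one. Over 9 same-numbered pairs the correlation of deviations ran from -0.14 to 0.18 and was over 0.1 in 3. Of the 9 libraries, 3 correlated best with their own number. With the replicate block the 3 counts were 12, 11 and 13, beside 26.4%, 32.2% and 50.5% of all genes. On the whole reads edgeR gave 14, 11 and 14 members, beside 28.4%, 32.8% and 50.9%. DESeq2 gave 14, 9 and 13, beside 23.8%, 27.7% and 45%. In each of these 3 fits 4 members followed genotype, beside 4.41%, 4.87% and 3.75% of all genes. At 174 to 334 reads per group, Tdeanc2 is the least deeply counted of the members that follow genotype.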
